A study of Mus musculus with 2 samples.

Results

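The genes described here encode 9 enzymes that clear superoxide and hydrogen peroxide: the superoxide dismutases Sod1, Sod2 and Sod3, catalase (Cat), and the glutathione peroxidases Gpx1, Gpx3, Gpx4, Gpx7 and Gpx8. They were taken by symbol from a deposited table that holds 24542 gene symbols, and the reads of all transcripts of a symbol were summed. All 9 were found, and all 9 passed the filter on low counts. Their RNA was read in the part of the left ventricle remote from a myocardial infarct, with scar and border zone cut away. The infarct had been set 7 days earlier in male mice of strain C57BL/6, by permanent ligation of the left anterior descending coronary artery close to its origin. The 2 groups are NRK-2 KO mice, labelled as knockouts of Nmrk2, whose product phosphorylates nicotinamide riboside on the way to NAD in muscle, and littermate controls. Both groups carry the same ligation, and no unoperated heart is among the samples. The sources used here do not say how the KO allele was made or in which tissues it is lost. The labels list 1 sample for each genotype, while the table has 3 numbered libraries for each, and nothing in the labels says that these came from separate hearts, so p-values measure the spread between libraries, which may be technical.

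Superoxide dismutases turn superoxide into hydrogen peroxide, and catalase and the glutathione peroxidases turn peroxides into water or alcohols. The enzymes work in different places. Sod2 sits in the mitochondrial matrix, Sod1 and Gpx1 are mostly cytosolic, Cat is peroxisomal, Gpx7 and Gpx8 face the lumen of the endoplasmic reticulum, Gpx4 reduces lipid peroxides inside membranes, and Sod3 and Gpx3 are secreted. In heart muscle, whose mitochondria respire heavily, these enzymes are known as the main line against oxidative damage after ischaemia.

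The coding sequence divides the peroxidases into those that use selenocysteine, which is read from a TGA codon, and those that use an ordinary cysteine codon at the catalytic position. The stretches below are shown because they tell these kinds apart and because 1 of them belongs to the member with the largest fold change. Capitals mark the catalytic codon, with 21 coding bases on each side, 5′ to 3′ on the coding strand, from GENCODE M21 transcripts (GRCm38) that match the most abundant RefSeq transcript of each gene.
Gpx1: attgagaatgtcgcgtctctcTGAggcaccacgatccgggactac
Gpx3: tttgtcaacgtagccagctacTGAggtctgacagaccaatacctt
Gpx4: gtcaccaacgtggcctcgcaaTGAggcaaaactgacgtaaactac
Gpx7: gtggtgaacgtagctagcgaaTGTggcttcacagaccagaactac
Gpx8: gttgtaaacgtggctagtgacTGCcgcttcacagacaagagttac
The TGA codons of Gpx1 (chr9:108339451-108339453), Gpx3 (chr11:54907256-54907258) and Gpx4 (chr10:80054737-80054739), all on the plus strand, are annotated as selenocysteine. The codons TGT of Gpx7 (chr4:108403430-108403432) and TGC of Gpx8 (chr13:113045661-113045663), both on the minus strand, encode cysteine. In Sod3 the longest run of arginine or lysine codons is shown, near the end of its 251 codons, since binding of the secreted enzyme to heparan sulphate in the matrix is known to rest on basic residues there. Capitals mark the run of 6 codons, which starts at codon 239 (chr5:52368675-52368692, plus strand).
Sod3: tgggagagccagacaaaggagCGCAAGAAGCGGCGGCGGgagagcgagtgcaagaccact

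The libraries labelled KO held 26975513 to 33086384 counted reads and the control libraries 22377348 to 22831189. Nmrk2 itself had 808, 9 and 0 reads in the libraries labelled KO 1, KO 2 and KO 3, against 308, 270 and 118 in control 1, control 2 and control 3. A count of 0 allows up to 3 reads. By this gene the library labelled KO 1 goes against its label, and results are also given without it. The noncoding Atcayos, whose locus overlaps that of Nmrk2, was at 2.38, 0.252 and 0.073 CPM in the libraries labelled KO 1, KO 2 and KO 3, against 12.4, 10.6 and 5.56 CPM in control 1, control 2 and control 3, so there KO 1 lay below every control library. The library labelled KO 2 carried lung transcripts, with Sftpc, the surfactant protein of alveolar cells, at 197 CPM. In KO 3 Sftpc was at 7.70 CPM. Control 3 had the highest summed levels of B cell and adipocyte markers. The atrial light chain Myl7 was at 127, 1.15 and 0.219 CPM in the libraries labelled KO 1, KO 2 and KO 3 and at 205, 162 and 0 CPM in control 1, control 2 and control 3, so atrial transcripts split the libraries across genotype, and their part in the levels of Sod1, Sod2 and Gpx4, for which control 3 stood apart from the other control libraries, was not tested. Levels are in CPM, read counts over the TMM-adjusted library size, with means ± SD over 3 libraries, and as the authors' FPKM where levels of different genes are compared. Log2 fold changes are those of the libraries labelled KO over control.

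The secreted enzymes Gpx3 and Sod3 were called higher in the libraries labelled KO, and no member was called lower by edgeR's adjusted p. These 2 of 9 members passed edgeR's quasi-likelihood test (adjusted p under 0.05 over 14466 genes), beside 3.70% of all genes tested, 2.61% upward and 1.09% downward. The CPM ranges of the groups did not overlap for 6 members: 4 lay higher in the libraries labelled KO, the secreted pair and Gpx7 and Gpx8 of the endoplasmic reticulum, and 2 lay lower, Sod1 and Sod2. Such separation was seen for 30.9% of all genes tested, 16.4% upward and 14.5% downward. The same 4 higher and 2 lower had an unadjusted p under 0.05 in edgeR, as did 25.9% of all genes tested. DESeq2 called 4 members higher and 2 lower, beside 15.5% of all genes, 7.16% upward and 8.29% downward. Without control 3, edgeR likewise called 4 higher and 2 lower, beside 24.6% of all genes, 11.6% upward and 12.9% downward. The median log2 fold change was -0.06 over the 9 members and 0.01 over all genes tested.

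**Figure D1:**
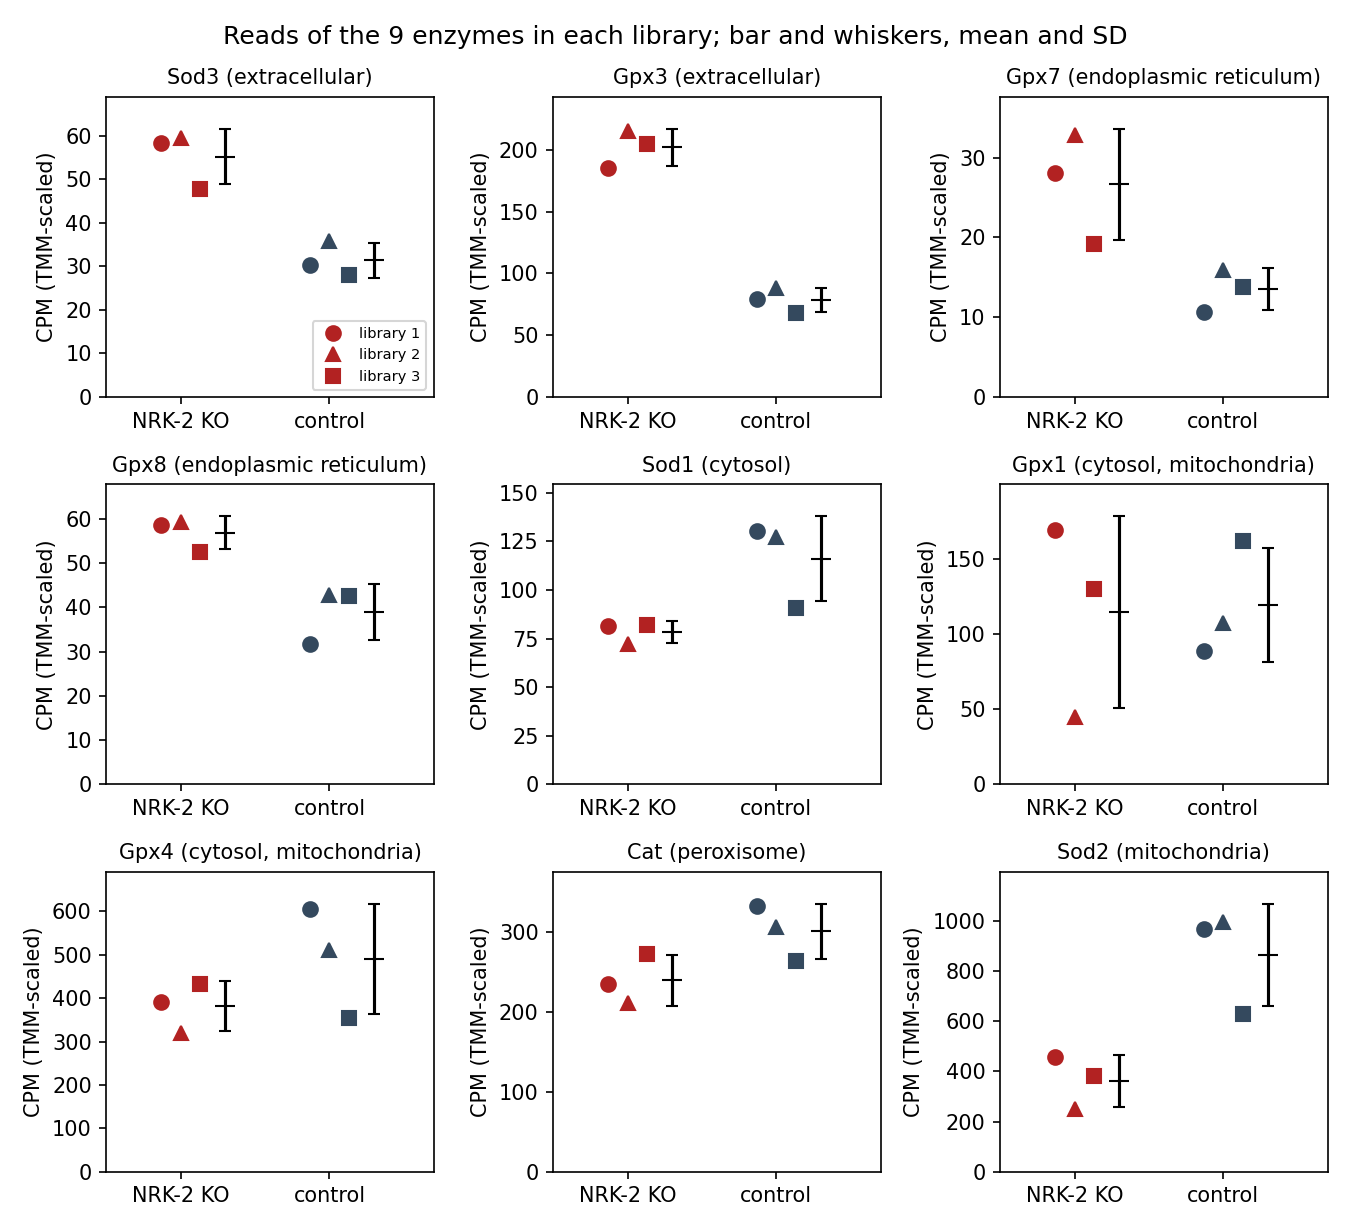
CPM of each of the 9 enzymes (vertical axes, from 0) in the libraries labelled NRK-2 KO, in red, and in control libraries, in dark blue. Each symbol is a library, and the bar with whiskers is the mean and SD of 3. Sod3, Gpx3, Gpx7 and Gpx8 lie higher in every library labelled KO, Sod1 and Sod2 lie lower, and Cat, Gpx1 and Gpx4 overlap.

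Gpx3, the plasma glutathione peroxidase, which is made mainly in kidney and reduces hydrogen peroxide and lipid peroxides outside cells, had the largest fold change of the 9. Gpx3 (gene ID 14778, chr11:54902854-54910387, mm10) was at 185, 215.5 and 205 CPM in the libraries labelled KO 1, KO 2 and KO 3, against 78.9, 88.1 and 68.0 CPM in control 1, control 2 and control 3. The lowest library labelled KO lay well above the highest control library, and the spread inside each group was small. The means were 202 ± 15.2 CPM in the libraries labelled KO and 78.4 ± 10.1 CPM in control, a ratio of 2.58 (log2 fold change 1.37 with an SE of 0.14, edgeR adjusted p = 0.0116). Nearly all of its reads, at least 97.6% per library, were assigned to a single transcript of the gene. Without KO 1 the rise remained past the test (log2 fold change 1.42, edgeR adjusted p = 0.0404), as it did without control 3 (adjusted p = 0.0115). It missed the threshold without KO 2, KO 3, control 1 or control 2, with adjusted p from 0.0516 to 0.0646 and log2 fold changes from 1.32 to 1.46.

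Sod3, the secreted copper and zinc dismutase that is held on the cell surface and in the matrix, rose by less. Sod3 (gene ID 20657, chr5:52363804-52369738) was at 58.3, 59.5 and 47.9 CPM in the libraries labelled KO 1, KO 2 and KO 3, against 30.3, 35.8 and 28.1 CPM in control 1, control 2 and control 3. The groups did not overlap. The means were 55.2 ± 6.40 CPM in the libraries labelled KO and 31.4 ± 4.01 CPM in control, a ratio of 1.76 (log2 fold change 0.82 with an SE of 0.15, edgeR adjusted p = 0.0394). Its call was kept without control 3 (adjusted p = 0.0212) and lost without any other single library, with adjusted p from 0.0841 to 0.147, and it was 0.13 without KO 1. The fold change moved little in these fits, from 0.74 to 0.92 on the log2 scale.

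Both secreted enzymes are known to be made outside cardiomyocytes as well, and the libraries differed in marker genes of several cell types. Of 5 markers of activated fibroblasts, 4 rose and 0 fell, beside 2.61% upward and 1.09% downward over all genes tested. Their summed level was 5225 to 7263 CPM in the libraries labelled KO against 549 to 1402 CPM in control. Postn, a matrix protein of activated fibroblasts and the most abundant of the list, was at 4473 to 5853 CPM against 362 to 1254 CPM. Of 8 general fibroblast markers 0 passed edgeR's test and 7 had a higher fitted level. At an unadjusted p under 0.05 edgeR gave 4 higher, beside 25.9% of all genes tested in either direction. DESeq2 called 4 higher, beside 7.16% upward, and edgeR without control 3 called 3 higher, beside 11.6% upward. The sums were 23066 to 34866 CPM in the libraries labelled KO against 6391 to 17776 CPM in control. Most of each sum came from the collagen genes of the list. Pdgfra, Dcn and Dpt had log2 fold changes of 0.25, 0.12 and -0.08, and their groups overlapped. Those of Lum, Tcf21 and the collagen genes were 0.94 to 1.48. Of 9 cardiomyocyte markers 0 passed edgeR's test and 0 had a higher fitted level. By the same looser rules 6 were lower at an unadjusted p under 0.05 in edgeR, beside the same 25.9% in either direction. DESeq2 called 6 lower, beside 8.29% downward over all genes, and edgeR without control 3 called 5 lower, beside 12.9% downward. The sums were 38889 to 60800 CPM in the libraries labelled KO against 63388 to 101377 CPM in control. For the single markers Ttn, the most abundant, Actc1 and Ryr2 the groups overlapped, and for the others of the list they did not. The part of these cell types in the levels of Gpx3 and Sod3 was not tested, and in tissue RNA fewer cells of a type and less RNA per cell cannot be told apart. The 4 lung markers summed to 0.518, 304 and 13.2 CPM in the libraries labelled KO 1, KO 2 and KO 3 and to 0.294, 0.53 and 0.852 CPM in control 1, control 2 and control 3. KO 2 had the highest Gpx3 and Sod3 of all libraries, and without it the log2 fold changes were 1.32 and 0.76. The kidney proximal tubule is a main source of plasma Gpx3. Of its markers, the endocytic receptor Lrp2 was at 4.35, 29.0 and 5.77 CPM in the libraries labelled KO 1, KO 2 and KO 3 and at 1.96, 3.04 and 25.0 CPM in control 1, control 2 and control 3, and the phosphate transporter Slc34a1 was at 0.122 CPM in control 3 and at 0 in the other libraries. The part of lung and kidney transcripts in the levels of Gpx3 and Sod3 was not tested.

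**Figure D2:**
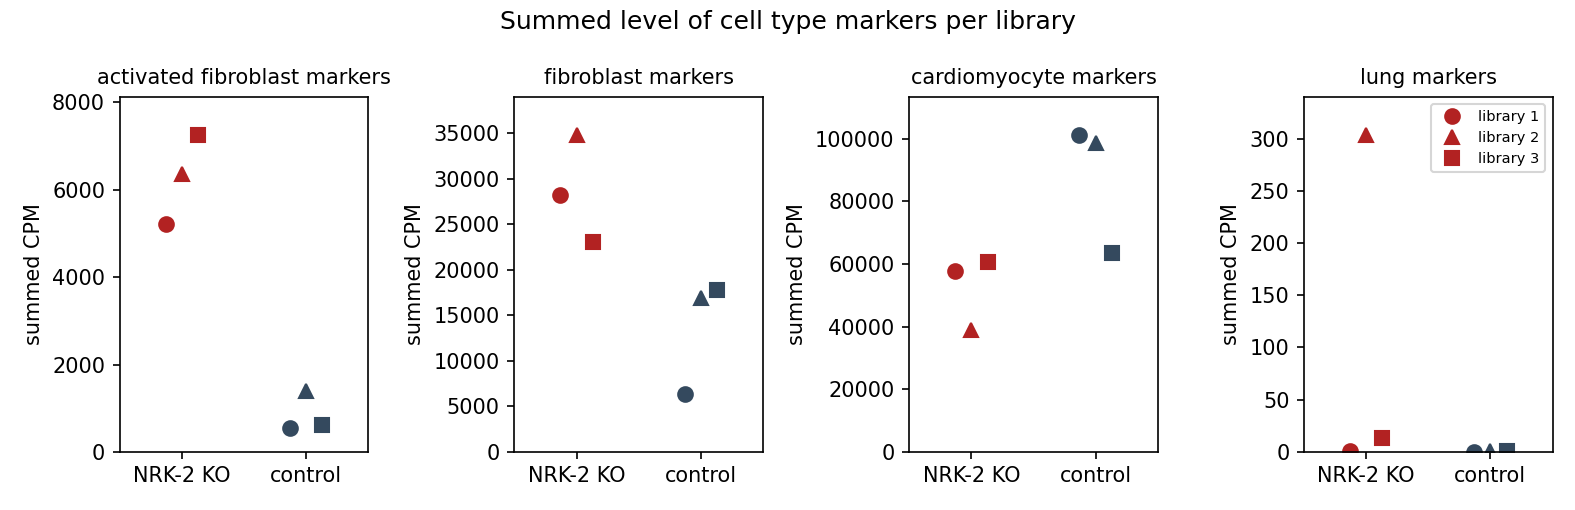
Summed CPM of 4 marker lists (vertical axes, from 0) in each library labelled NRK-2 KO, in red, and each control library, in dark blue. Activated fibroblast markers are at 5225 CPM or more in the libraries labelled KO and at 1402 CPM or less in control. The summed cardiomyocyte markers are lower in every library labelled KO, at 60800 CPM or less against 63388 CPM or more in control. Lung markers are highest in KO 2, at 304 CPM, followed by KO 3 at 13.2 CPM.

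The pair of peroxidases that reside in the endoplasmic reticulum lay higher without passing the test. Gpx7, which passes oxidising equivalents from hydrogen peroxide to protein disulphide isomerase, had 28.04, 32.8 and 19.1 CPM in the libraries labelled KO 1, KO 2 and KO 3, against 10.7, 15.9 and 13.8 CPM in control 1, control 2 and control 3 (gene ID 67305, chr4:108400217-108406713). KO 3 lay nearest to the control range, and the ratio of means, 26.7 ± 6.95 to 13.5 ± 2.64 CPM, was 1.98 (log2 fold change 0.98 with an SE of 0.24, edgeR adjusted p = 0.0719). Gpx8, a membrane-anchored relative, had 58.6, 59.3 and 52.5 CPM in the libraries labelled KO 1, KO 2 and KO 3, against 31.7, 42.8 and 42.4 CPM in control 1, control 2 and control 3 (gene ID 69590, chr13:113042763-113046388). The groups did not overlap, with means of 56.8 ± 3.72 and 39.0 ± 6.28 CPM (log2 fold change 0.54 with an SE of 0.15, edgeR adjusted p = 0.0871). Both genes passed without control 3 (adjusted p = 0.0457 for Gpx7 and 0.036 for Gpx8 by edgeR), and without KO 1 they stood at adjusted p = 0.177 and 0.203. Gpx7 and Gpx8 each overlap another annotated gene. That at Gpx8, Cdc20b, had 0 reads in all 6 libraries, and the noncoding Gm32297 at Gpx7 was not analysed here.

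Sod2, the manganese dismutase of the mitochondrial matrix, had the lowest fold change of the 9. Sod2 (gene ID 20656, chr17:13007839-13018119) was at 456, 249.8 and 383 CPM in the libraries labelled KO 1, KO 2 and KO 3, against 967, 996 and 628 CPM in control 1, control 2 and control 3. Every library labelled KO lay below every control library, KO 2 being lowest, and control 3 came closest to them. The means were 363 ± 104 and 864 ± 204 CPM, a ratio of 0.42, which missed the threshold (log2 fold change -1.25 with an SE of 0.28, edgeR adjusted p = 0.0631). Without KO 1 the log2 fold change was -1.45 with adjusted p = 0.123, and without control 3 it was -1.43 with adjusted p = 0.018. In the summed cardiomyocyte markers, too, KO 2 was lowest at 38889 CPM and control 3 was the lowest control library at 63388 CPM. Their part in the Sod2 level was not tested.

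The cytosolic Sod1, which uses copper and zinc and receives its copper from the chaperone Ccs, had a smaller difference in the same direction. Sod1 (gene ID 20655, chr16:90220742-90226324) was at 81.2, 72.1 and 81.8 CPM in the libraries labelled KO 1, KO 2 and KO 3, against 130.1, 127 and 90.7 CPM in control 1, control 2 and control 3. The groups did not overlap, and control 3 lay nearest to the libraries labelled KO. The means of 78.4 ± 5.45 and 116 ± 21.9 CPM gave a log2 fold change of -0.57 (SE 0.16), which did not pass (adjusted p = 0.094 by edgeR). Without control 3 it passed (log2 fold change -0.71, edgeR adjusted p = 0.0171), and without KO 1 it did not (adjusted p = 0.201).

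Catalase, the haem enzyme that splits hydrogen peroxide in peroxisomes, differed little. Cat (gene ID 12359, chr2:103453904-103485153) was at 234, 210.4 and 272 CPM in the libraries labelled KO 1, KO 2 and KO 3, against 332, 306 and 263 CPM in control 1, control 2 and control 3. KO 3 lay above control 3, so the groups overlapped in CPM, while in FPKM, which the authors scaled to library totals, every library labelled KO lay below every control library (87.4 to 107 against 108 to 117 FPKM). The log2 fold change was -0.33 with an SE of 0.16 (edgeR adjusted p = 0.235).

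Gpx4, the selenoenzyme that removes phospholipid hydroperoxides and protects cells from ferroptosis, had the highest FPKM of the members in every library and did not pass. Gpx4 (gene ID 625249, chr10:80047166-80056439) was at 391.9, 319.7 and 433 CPM in the libraries labelled KO 1, KO 2 and KO 3, against 606, 512 and 354 CPM in control 1, control 2 and control 3 (log2 fold change -0.36 with an SE of 0.23, edgeR adjusted p = 0.36). Control 3 fell inside the range of the libraries labelled KO. Between 97.1% and 99.0% of its reads per library were assigned to a single one of its 3 transcripts, and the sources used here do not say how reads shared by transcripts were divided.

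Gpx1, the main cytosolic glutathione peroxidase, varied more between libraries of the same genotype than any other member. Gpx1 (gene ID 14775, chr9:108339080-108340344) was at 169, 44.8 and 129.9 CPM in the libraries labelled KO 1, KO 2 and KO 3, against 88.5, 107 and 162 CPM in control 1, control 2 and control 3. The highest library labelled KO held 3.78 times the lowest, and the groups overlapped fully (log2 fold change -0.06 with an SE of 0.47, edgeR adjusted p = 0.956). Its direction turned when KO 2 or control 3 was left out, to 0.33 and 0.23 on the log2 scale. The share of its reads given to a second transcript of the gene was 35.6%, 20.1% and 1.94% in the libraries labelled KO 1, KO 2 and KO 3 and 0.0%, 38.4% and 2.15% in control 1, control 2 and control 3, with no order by genotype. Gpx1 is known to be abundant in red blood cells, whose 10 markers summed to 2145, 580.2 and 371 CPM in the libraries labelled KO 1, KO 2 and KO 3 and to 1224, 843 and 716 CPM in control 1, control 2 and control 3. Of 9 tested markers 0 passed edgeR's test. At an unadjusted p under 0.05 edgeR gave 1 lower, beside 25.9% of all genes tested in either direction, and DESeq2 called 1 lower, beside 8.29% downward. The lower gene in edgeR was the alpha globin gene Hba-a1, at 8.67, 1.99 and 2.56 CPM in the libraries labelled KO 1, KO 2 and KO 3 against 452, 315 and 1.91 CPM in control 1, control 2 and control 3. Hba-a2, also an alpha globin gene, ran the other way, at 743, 203 and 121 against 0.687, 1.45 and 238 CPM. How reads were divided between these genes was not tested. The part of red blood cells in the Gpx1 level was not tested.

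**Figure D3:**
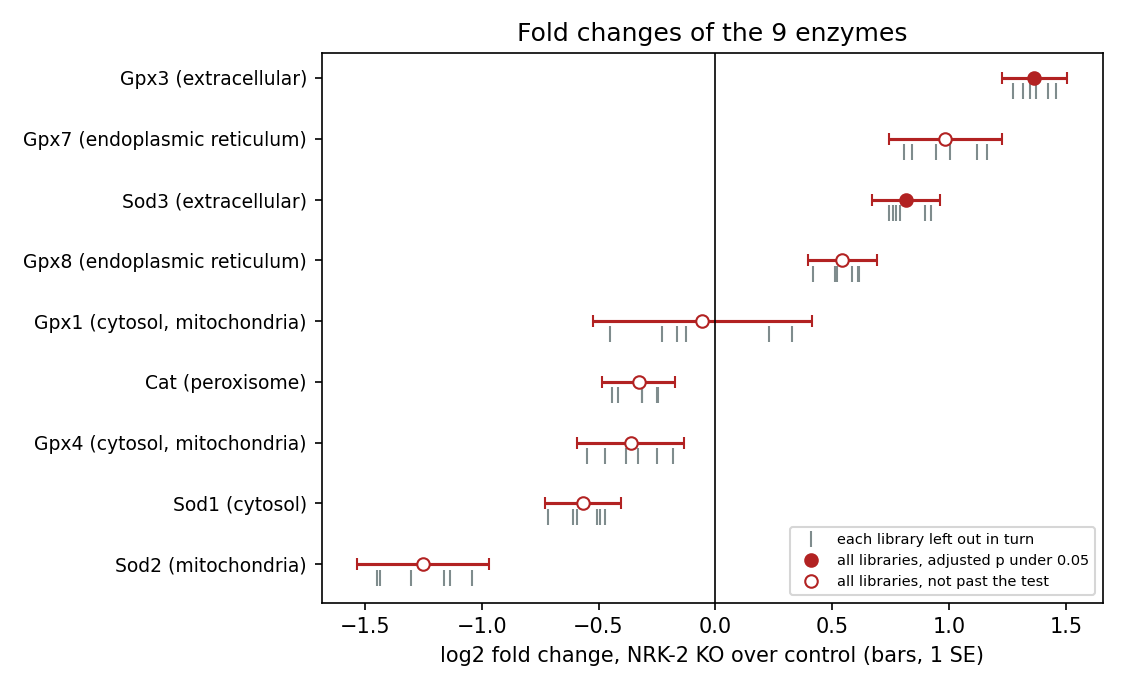
Log2 fold change of each enzyme, libraries labelled NRK-2 KO over control (horizontal axis), with bars of 1 SE. Filled circles passed edgeR's test (Gpx3 and Sod3), open circles did not, and grey ticks are the fold changes with each library left out in turn. All ticks of a gene lie on the same side of 0 except those of Gpx1.

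Levels of different members were compared per transcript length, as FPKM, in which the order of the members differed between the groups. In the libraries labelled KO the order of mean FPKM was Gpx4 (404 ± 48.5), Gpx3 (135 ± 14.0), Sod1 (123 ± 4.52), Gpx1 (110.5 ± 59.5), Sod2 (96.2 ± 25.3), Cat (95.3 ± 9.99), Gpx8 (57.1 ± 5.18), Sod3 (27.6 ± 3.85) and Gpx7 (22.5 ± 6.50). Ranges of neighbours overlapped from Gpx3 down to Cat and between Sod3 and Gpx7, and did not overlap between Gpx4 and Gpx3, Cat and Gpx8, or Gpx8 and Sod3. In control it was Gpx4 (479.6 ± 88.6), Sod2 (212 ± 33.1), Sod1 (168 ± 17.7), Cat (111 ± 4.91), Gpx1 (111 ± 46.6), Gpx3 (48.6 ± 2.998), Gpx8 (36.7 ± 8.11), Sod3 (14.5 ± 1.22) and Gpx7 (10.6 ± 2.34). There only Sod2 and Sod1, and Cat and Gpx1, had overlapping ranges as neighbours. Gpx3 thus held rank 2 in the libraries labelled KO and rank 6 in control, while Sod2 held rank 5 and rank 2.

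The make-up of each family was read from the same FPKM values. Sod3 made up 10.4%, 14.2% and 9.37% of the summed dismutase FPKM in the libraries labelled KO 1, KO 2 and KO 3, against 3.16%, 3.69% and 4.31% in control 1, control 2 and control 3. The difference of means was 7.60 percentage points, and the groups did not overlap (exact permutation test, two-sided, p = 0.10, the smallest that 3 libraries against 3 allow). Sod2 was the larger of the mitochondrial and cytosolic dismutases in every control library and the smaller in every library labelled KO, with Sod1 at 1.05, 1.702 and 1.26 times the FPKM of Sod2 in the libraries labelled KO 1, KO 2 and KO 3, against 0.794, 0.754 and 0.852 times in control 1, control 2 and control 3. Gpx3 made up 15.8%, 23.5% and 17.3% of the summed peroxidase FPKM in the libraries labelled KO 1, KO 2 and KO 3, against 6.41%, 7.72% and 7.19% in control 1, control 2 and control 3, a difference of 11.7 percentage points (exact permutation test, two-sided, p = 0.10, again the smallest possible). The summed FPKM of the 3 dismutases was 247 ± 27.8 in the libraries labelled KO and 395 ± 50.5 in control. That of the 5 peroxidases overlapped, at 729.6 ± 78.1 and 686 ± 35.8.

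**Figure D4:**
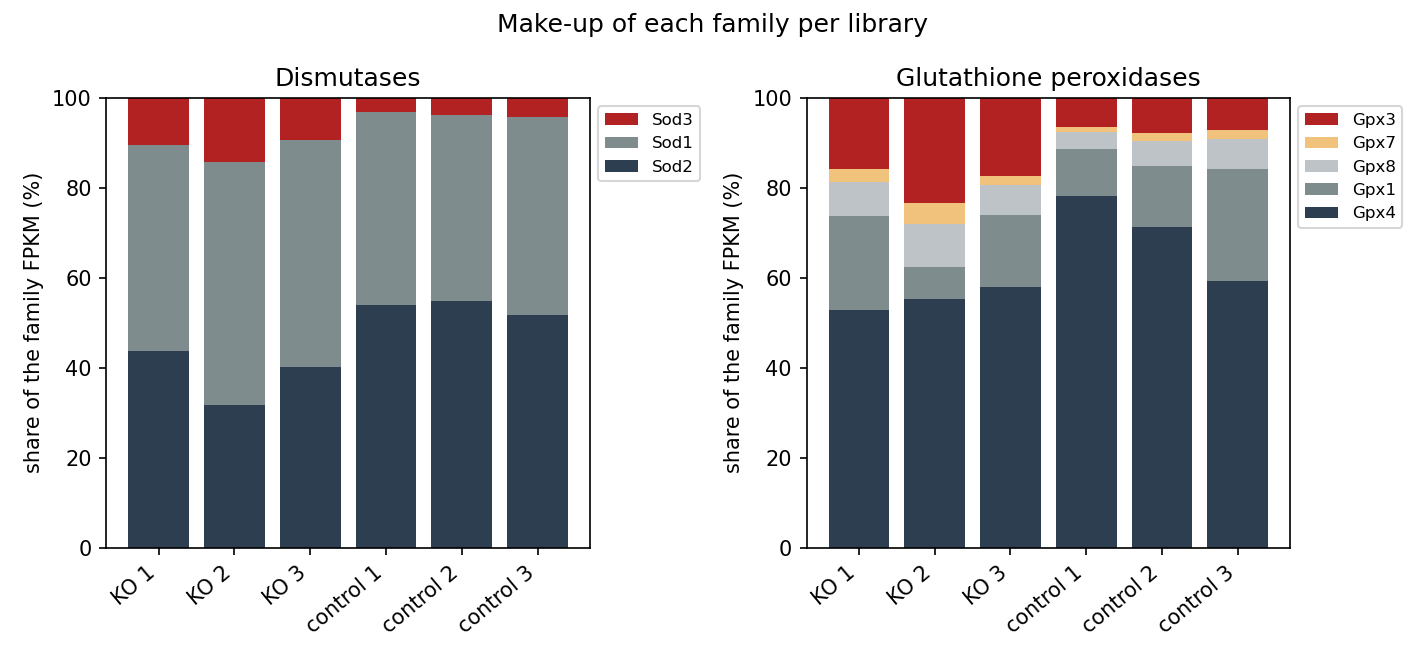
Share of each gene in the summed FPKM of the 3 dismutases (left) and of the 5 glutathione peroxidases (right), in percent, for each library labelled NRK-2 KO and each control library. The secreted members, in red, take 9.37% to 14.2% (Sod3) and 15.8% to 23.5% (Gpx3) in the libraries labelled KO and at most 4.31% and 7.72% in control.

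Other genes of superoxide and peroxide handling were read from lists, of which 118 genes were tested. Of these 4 rose, beside 2.61% upward calls over all genes tested, and 4 fell, beside 1.09% downward, and the median log2 fold change was -0.07. Fbln5 (fibulin-5), an elastic fibre protein known in mice to bind Sod3 in the vessel wall, was the 1 of 8 dismutase partners that passed. It was at 159.9, 245 and 185 CPM in the libraries labelled KO 1, KO 2 and KO 3, against 68.3, 62.7 and 58.8 CPM in control 1, control 2 and control 3 (log2 fold change 1.64 with an SE of 0.18, edgeR adjusted p = 0.0130). It passed without KO 1 (adjusted p = 0.0351), KO 2 or control 3, and not without KO 3, control 1 or control 2 (0.0546 to 0.0799). The metal importer Slc39a14 was the most abundant partner that did not pass (80.7 ± 7.60 and 82.2 ± 11.2 CPM). Gpx2, Gpx5 and Gpx6 did not pass the filter on low counts.

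Enzymes that produce hydrogen peroxide held 3 of the 8 calls. Of 13 tested sources of superoxide and peroxide 2 rose and 1 fell (median log2 fold change 0.39). At an unadjusted p under 0.05 edgeR gave 2 higher and 1 lower, beside 25.9% of all genes tested in either direction. DESeq2 called 2 higher and 1 lower, beside 15.5%, and edgeR without control 3 called 6 higher and 1 lower, beside 24.6%. Nox4, an NADPH oxidase that releases mainly hydrogen peroxide, was at 29.4, 56.4 and 62.7 CPM in the libraries labelled KO 1, KO 2 and KO 3, against 14.8, 8.62 and 6.53 CPM in control 1, control 2 and control 3 (log2 fold change 2.31 with an SE of 0.40, edgeR adjusted p = 0.0348). Lox, the matrix enzyme that crosslinks collagen and gives off hydrogen peroxide, averaged 739 ± 116 CPM in the libraries labelled KO and 110.3 ± 56.9 CPM in control (adjusted p = 0.0303). Maob, a monoamine oxidase of the mitochondrial outer membrane that also makes hydrogen peroxide, fell to 22.2 ± 2.85 CPM in the libraries labelled KO, against 47.5 ± 6.64 CPM in control (adjusted p = 0.0246). Xdh, xanthine dehydrogenase, did not pass (111 ± 5.66 and 148 ± 59.3 CPM). All 3 calls were lost without KO 1, with edgeR adjusted p of 0.0974 for Lox, 0.0568 for Nox4 and 0.0885 for Maob, and all were kept without control 3. Nox4 and Maob were also lost without any of the other 4 libraries, and Lox without KO 2, KO 3 or control 2. On the most abundant transcript alone, Nox4 had a log2 fold change of 3.76 and did not pass (edgeR adjusted p = 0.150), nor did Lox (0.0946).

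The lists for the peroxisome and the endoplasmic reticulum, which house Cat and the pair Gpx7 and Gpx8, held 3 of the calls. Of the 20 genes in the peroxisome list 0 rose and 2 fell by edgeR's adjusted p (median log2 fold change -0.54, beside 0.01 over all genes tested). They were the beta-oxidation enzymes Ehhadh, at 9.56 ± 0.643 against 18.0 ± 1.96 CPM, and Ech1, at 365 ± 133 against 1302 ± 322 CPM. A lower fitted level was seen for 17 of the 20. At an unadjusted p under 0.05 edgeR gave 0 higher and 9 lower, beside 25.9% of all genes in either direction. DESeq2 called 0 higher and 8 lower, beside 15.5% of all genes, 7.16% upward and 8.29% downward. Without control 3 edgeR called 0 higher and 8 lower, beside 24.6%, 11.6% upward and 12.9% downward. Of 11 genes of oxidative folding in the endoplasmic reticulum 1 rose and 0 fell (median 0.35), the sulphydryl oxidase Qsox1, at 93.2, 92.4 and 87.5 CPM in the libraries labelled KO 1, KO 2 and KO 3 against 45.3, 49.6 and 42.6 CPM in control 1, control 2 and control 3 (log2 fold change 0.99 with an SE of 0.11, edgeR adjusted p = 0.0129). P4hb, the disulphide isomerase that Gpx7 is known to oxidise, did not pass (646 ± 69.4 and 432 ± 35.6 CPM, adjusted p = 0.0777). In the folding list edgeR gave 6 genes higher and 1 lower at an unadjusted p under 0.05. DESeq2 called 3 higher and 1 lower there, and edgeR without control 3 called 4 higher and 1 lower, beside the shares of all genes just given. Without KO 1 the edgeR adjusted p was 0.117 for Ehhadh, 0.0954 for Ech1 and 0.0572 for Qsox1. These 3 calls, and that of Ggct, were kept without control 3 and lost without any other single library. On the most abundant transcript alone Ech1 (edgeR adjusted p = 0.0721), Ehhadh (0.0639) and Ggct (0.0721) did not pass.

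The systems that keep the peroxidases supplied held 1 call by edgeR's adjusted p. Of 19 glutathione supply genes 0 rose and 1 fell (median -0.35), Ggct, an enzyme of glutathione breakdown, at 6.08 ± 0.582 CPM in the libraries labelled KO against 12.0 ± 0.383 CPM in control (adjusted p = 0.0368 by edgeR, and 0.119 without KO 1). In the same list 1 gene was higher and 8 lower at an unadjusted p under 0.05, 1 was higher and 5 lower by DESeq2, and 2 were higher and 9 lower by edgeR without control 3. Over all genes tested these rules called 25.9%, 15.5% and 24.6% in either direction. Idh2, which makes NADPH in mitochondria, did not pass (820.1 ± 248 and 2003 ± 520 CPM, adjusted p = 0.0690). None of 18 genes of selenoprotein synthesis and other selenoproteins passed (median -0.06), with Sepp1, the selenium carrier, at 779 ± 129.8 and 754 ± 247 CPM. None of 16 peroxiredoxin and thioredoxin genes passed (median -0.35), with the thioredoxin inhibitor Txnip at 463 ± 91.3 and 542 ± 64.6 CPM. None of 13 regulators and targets of the antioxidant factor NRF2 passed (median 0.09), with Ftl1, the ferritin light chain, at 897 ± 158 and 583 ± 214 CPM. These 3 counts of 0 are by edgeR's adjusted p. At an unadjusted p under 0.05 edgeR gave 3 selenoprotein genes higher and 3 lower, 2 peroxiredoxin and thioredoxin genes higher and 5 lower, and 0 of the NRF2 list. DESeq2 called 3 selenoprotein genes higher and 1 lower, 1 peroxiredoxin and thioredoxin gene higher and 3 lower, and 0 of the NRF2 list. Without control 3 edgeR called 2 selenoprotein genes higher and 4 lower, and 0 peroxiredoxin and thioredoxin genes higher and 7 lower. Of the NRF2 list it then called 2 higher and 3 lower. The shares over all genes are those given above for the same rules.

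**Figure D5:**
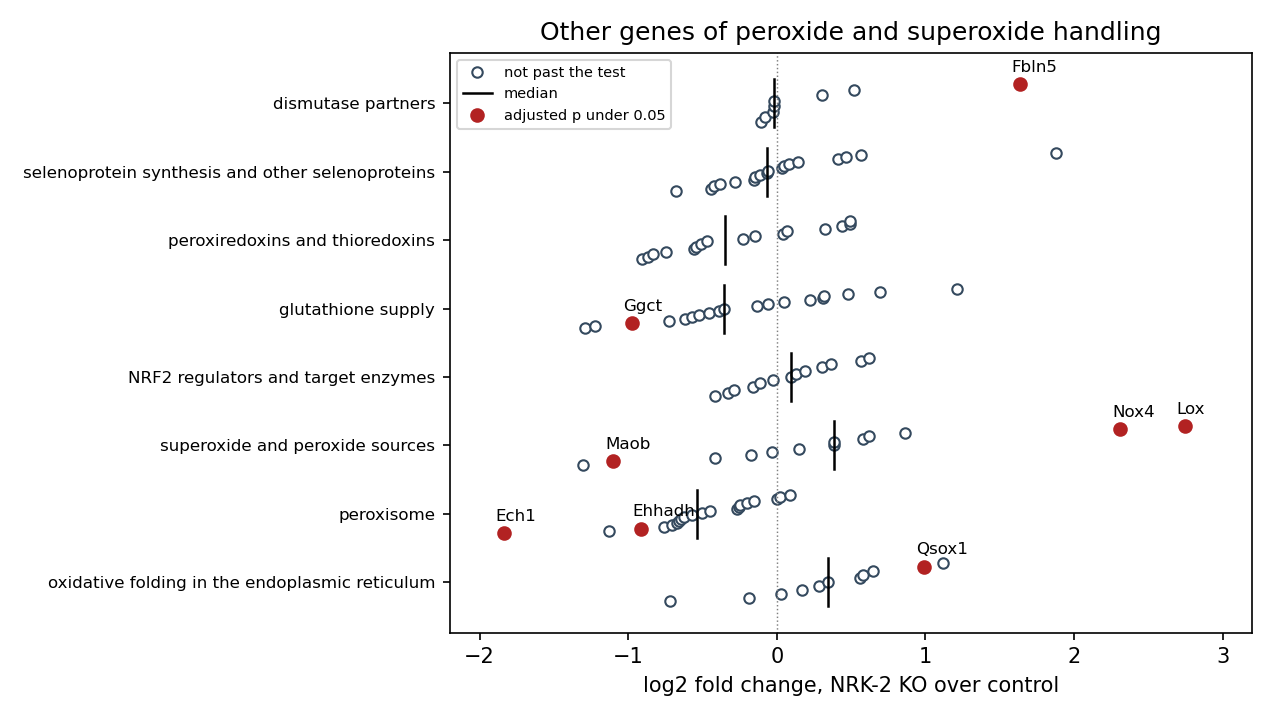
Log2 fold change, libraries labelled NRK-2 KO over control (horizontal axis), of the tested genes of 8 lists (rows). Filled circles with names passed edgeR's test, open circles did not, and a vertical line marks the median of each list. The 8 named genes lie in 5 of the 8 lists, and the peroxisomal list has the lowest median, at -0.54.

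NRF2 binds antioxidant response elements, whose core TGACNNNGC was searched on both strands in RefSeq promoter windows (GRCm38.p6) of 250 bases before to 50 after each start. Of the 9 members 8 had a window, Sod3 having none in the table used. Only Sod1 of these 8 held a match, or 12.5% of them, against 16.9% of 10960 tested genes with a window and 12.4% of all 32851 windows. The 250 bases before the start of Sod1 (chr16:90220512-90220761, plus strand), with the match in capitals as it reads on the opposite strand, and those of Gpx3 (chr11:54902604-54902853, plus strand), shown as the member with the largest fold change and without a match, were as follows.
Sod1: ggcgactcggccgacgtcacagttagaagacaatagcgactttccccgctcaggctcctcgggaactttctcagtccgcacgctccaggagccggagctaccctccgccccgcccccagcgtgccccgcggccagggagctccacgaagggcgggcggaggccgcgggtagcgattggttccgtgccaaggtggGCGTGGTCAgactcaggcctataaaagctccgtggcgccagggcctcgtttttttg
Gpx3: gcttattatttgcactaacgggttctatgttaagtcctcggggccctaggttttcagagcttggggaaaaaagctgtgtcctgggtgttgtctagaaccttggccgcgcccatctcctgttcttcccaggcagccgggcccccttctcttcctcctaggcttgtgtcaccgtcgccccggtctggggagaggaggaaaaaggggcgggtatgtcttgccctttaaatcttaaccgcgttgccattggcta
No match in a window says only that these letters are not in it.

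The genes nearest in pattern to each member were found over the 6 libraries by the root mean square difference of centred log2(CPM + 1) values, taken over the 9577 eligible genes averaging 10 CPM or more. For Gpx3 they were Dpysl3 and Map6 (0.07 each, against 0.69 between Gpx3 and a flat profile), and for Sod3 Layn and Tubb2b (0.08 each, against 0.42). Gpx7 lay nearest to Fkbp10 and P3h1 (0.09 and 0.11, against 0.53) and Gpx8 to Prrc1 and Stx2 (0.04 and 0.05, against 0.31). Sod2 lay nearest to Hsdl2 and Ndufa5 (0.04 each, against 0.71), Sod1 to Aurkaip1 and Bag1 (0.03 and 0.04, against 0.32), Cat to Mkln1 and Chd1l (0.04 each, against 0.22) and Gpx4 to Tti1 and Pkp4 (0.04 each, against 0.31). Gpx1 had no close match, its nearest genes being Tspan14 and Med15 (0.21 and 0.35, against 0.64). Among the members themselves, Cat, Gpx4 and Sod1 were nearest to each other (0.14 to 0.15), followed by Sod3 and Gpx7 (0.19) and Sod3 and Gpx8 (0.20), and Sod2 and Gpx3 were farthest apart (1.35).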

How the data were processed

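Stranded libraries of total RNA were sequenced, per the labels' protocols. The submitters' processing notes name mm10, HISAT2 and Bowtie2, with no roles. The sources used here name no counting program and do not say whether strand was used. Per the file headers, the authors deposited whole-number read counts and FPKM for 36780 RefSeq transcripts, with transcript length as another property. Columns whose names begin with KO or C were given to the sample of that genotype. Counts and FPKM were summed per symbol. For the test, edgeR 4.0.16 under R 4.3.3 took the counts through filterByExpr, TMM scaling and its quasi-likelihood test, with Benjamini-Hochberg adjustment over all genes and calls at an adjusted p under 0.05. The code was tested on simulated data with 3 libraries against 3. It called 34 of 100 genes changed 2-fold and 97 of 100 changed 4-fold. A gene that did not pass may thus still differ by 2-fold. SEs are the log2 fold change over the root of F. Shares were tested by exact permutation. The alternatives were DESeq2 1.42.0, limma 3.58.1 on log2(FPKM + 1) and log2(FPKM + 0.1), other scalings, no filter, single transcripts, a block for library number and leaving out each library. Members, lists and tests were chosen with earlier results of these data known. Named genes are the members, Nmrk2, from each list up to 4 genes past the test and the most abundant that did not pass, the 2 genes nearest in pattern to each member, and the most abundant gene of a marker list (here Postn, Ttn, Sftpc and Lrp2). Cdc20b, Gm32297, Atcayos, Myl7, Slc34a1, Pdgfra, Dcn, Dpt, Lum, Tcf21, Actc1, Ryr2, Hba-a1 and Hba-a2 were named after their values were seen. A gene that this rule names is not reported here. Of the marker lists not described in the report, none of endothelial, smooth muscle, macrophage, neutrophil, adipocyte, atrial, B cell or T cell markers had a gene past edgeR's test; by DESeq2 1 atrial and 2 macrophage markers were higher and 0 of the others passed, and at an unadjusted p under 0.05 edgeR gave the same counts and 2 smooth muscle markers lower. Over all genes tested, DESeq2 called 15.5% and 25.9% had an unadjusted p under 0.05 in edgeR. Without control 3 edgeR called 6 of 7 macrophage markers and 1 atrial marker higher, beside 11.6% upward over all genes. It then called 2 smooth muscle markers lower, beside 12.9% downward, and 0 of the other lists just named. Every member had at least 218 reads in every library.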

Additional observations from a re-analysis of the deposited data

How the results depend on the processing

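The direction of 8 of the 9 members was the same under every alternative run; Gpx1, which did not pass, turned to 0.33 without KO 2 and 0.23 without control 3 (-0.45 to 0.33 over the libraries left out). With all libraries 378 genes were called higher and 157 lower. DESeq2 called 1074 and 1244, limma called 335 and 306 lower with pseudocounts of 1 and 0.1, and the fit with the library number as a replicate block called 6 and 0. Of the members, 2 higher and 0 lower became 4 and 2 with DESeq2, 0 higher with the block (adjusted p = 0.088 for Gpx3 and 0.122 for Sod3), and 1 lower, Sod2, with library totals alone and with either limma fit. Of the list genes, 4 higher and 4 lower became 11 and 19 with DESeq2 and 0 and 0 with the block. The labels do not say that the numbers pair the libraries. Same-numbered libraries deviated from their group means with r = 0.307, -0.33 and -0.352. With 3 libraries in each centred group, these values cannot settle whether the numbers pair them. Leaving out each library gave 3 to 1719 genes higher and 0 to 1909 lower over all genes, with the highest counts without control 3, 0 to 4 members higher and 0 to 2 lower, and 0 to 18 list genes higher and 0 to 33 lower. The shares of Sod3 and Gpx3 kept their direction. The most abundant transcript alone ended the calls of Sod3 (adjusted p = 0.0687), Ech1 (0.0721), Ehhadh (0.0639), Ggct (0.0721), Lox (0.0946) and Nox4 (0.150). Log2 fold changes that turned, none of them past the test, were those of Nmrk2 (0.35 when KO 2 or KO 3 was left out and 0.08 for control 1, within -6.29 to 0.35), of Sepp1 (-0.02, -0.04, -0.12 and -0.04 when KO 2, KO 3, control 1 and control 2 were left out, up to 0.34) and of Slc39a14 (0.087 with library totals, 0.077 and 0.081 with limma and pseudocounts of 1 and 0.1, 0.03 when KO 3 and 0.089 when control 2 was left out, down to -0.10). The cause of these changes was not tested. Limma with a pseudocount of 0.1 moved the median of all genes by 0.12, and no other scaling moved it by more than that.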
